A study of Homo sapiens with 32 samples.

Results

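The regions of uracil enrichment described here come from MMR proficient HCT116 cells that express UGI, with and without the drug 5FdUR. Members were chosen by label: 2 replicate region files of 5FdUR treated cells (5FdUR_UGI_MMR) and 2 of non-treated cells (NT_UGI_MMR), 4 of the 32 samples of the series. HCT116 is a human colorectal carcinoma line without working mismatch repair (MMR), and the sub-line used here carries an added chromosome 3 that restores it. Both groups stably express UGI together with EGFP after retroviral transduction and cell sorting, so the untreated cells carry UGI as well. The treated cells received 20 µM 5FdUR (5-fluoro-2′-deoxyuridine) for 48 hours, and the study ran 2 independent biological replicates per condition. Region positions hold no measure of repair activity, so the MMR status rests on the labels.

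Uracil enters DNA either by deamination of cytosine or when DNA polymerases incorporate dUTP in place of dTTP. 5FdUR is converted to an inhibitor of thymidylate synthase, which raises the dUTP to dTTP ratio, and the uracil incorporated is normally removed by the uracil-DNA glycosylase UNG, which UGI inhibits. In U-DNA-Seq, fragmented genomic DNA is pulled down with a catalytically inactive UNG sensor, and the enriched library is divided by its input library. The deposited value is the log2 ratio of enriched over input coverage in 100 bp steps, smoothed, and the files list stretches above a threshold that the authors set for each library. Each library is scaled to its own depth, so the ratio gives where uracil lies and not how much the cells hold. The sensor also binds fluorouracil, which 5FdUR can place in DNA, so the regions of treated cells may hold either base. Covered share below means the percent of known bases of a bin, gene or chromosome that lie inside listed regions.

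Because the authors' thresholds fix the total length, that total is a choice and not a measurement. The lowest listed log2 values were 0.20 and 0.13 in 5FdUR_UGI_MMR replicates 1 and 2, and 0.29 and 0.32 in NT_UGI_MMR replicates 1 and 2. With these thresholds the regions covered 17.3% and 17.8% of the genome after 5FdUR and 10.9% and 11.3% without drug. The second 5FdUR library stood apart: only 12.7 Mb of it reached a log2 ratio of 0.34, compared with 196, 267 and 315 Mb in 5FdUR replicate 1 and NT_UGI_MMR replicates 1 and 2. The main counts and differences are therefore also given without it. The files hold no read counts, so the depth behind each region is unknown and no counting interval is given.

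After 5FdUR the enriched regions lay in other places of the genome. Sequences at the centre of long stretches particular to each group are given as examples and do not stand for all stretches. Stretches covered in both 5FdUR libraries and in neither untreated library numbered 119114 (222 Mb, 2931 of them at least 10 kb long), and stretches with the opposite pattern numbered 92882 (165 Mb, 978 of at least 10 kb). The 200 central bases of long stretches of each kind, taken from different chromosomes, are printed below. These stretches need not be the longest of their kind in the genome. Bases are from GRCh38, plus strand, 5′ to 3′, with CpG dinucleotides in capitals.
MTHFSD intron, chr16:86537501-86537700, 5FdUR only: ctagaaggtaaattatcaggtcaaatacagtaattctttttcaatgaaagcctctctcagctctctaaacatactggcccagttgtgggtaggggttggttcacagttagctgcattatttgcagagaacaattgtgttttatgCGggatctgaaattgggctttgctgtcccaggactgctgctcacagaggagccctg
ATP2B2 intron, chr3:10612451-10612650, 5FdUR only: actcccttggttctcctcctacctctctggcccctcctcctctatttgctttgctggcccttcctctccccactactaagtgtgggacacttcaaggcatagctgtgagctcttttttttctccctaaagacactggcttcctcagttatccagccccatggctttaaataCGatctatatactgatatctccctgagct
UBBP4 locus, chr17:22141151-22141350, untreated only: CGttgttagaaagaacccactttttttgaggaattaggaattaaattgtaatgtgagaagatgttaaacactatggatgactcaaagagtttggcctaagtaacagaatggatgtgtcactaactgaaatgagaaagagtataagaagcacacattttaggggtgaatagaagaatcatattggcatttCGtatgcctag
CDH9 flank, chr5:27926501-27926700, untreated only: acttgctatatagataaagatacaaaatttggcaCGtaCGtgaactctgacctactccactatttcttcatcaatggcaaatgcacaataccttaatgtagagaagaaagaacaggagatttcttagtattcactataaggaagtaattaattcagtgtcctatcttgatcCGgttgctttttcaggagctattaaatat

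The first sequence lies in an intron of MTHFSD, inside a stretch of 123.6 kb on chromosome 16 with a GC content of 51.3% that also holds the forkhead genes FOXL1, FOXF1 and FOXC2. The second lies in an intron of ATP2B2, a plasma membrane calcium pump gene, in a stretch of 93.7 kb with 48.1% GC. The third lies in the lncRNA-annotated gene UBBP4, 437 kb from the nearest protein-coding gene KCNJ18, in a stretch of 37.1 kb with 32.3% GC. The fourth lies in no annotated gene, 805 kb from the cadherin gene CDH9, in a stretch of 36.2 kb with 32.7% GC. None of the 4 windows is in a protein-coding exon, and the GC content of the windows themselves was 44.5% and 49.0% for the 5FdUR stretches and 35.0% and 34.0% for the untreated stretches.

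The regions over the MTHFSD window had a mean log2 ratio of 0.516 and 0.353 in 5FdUR replicates 1 and 2, over lengths of 281.0 and 135.1 kb. Neither untreated library listed a region there. The regions over the CDH9 flank window had a mean log2 ratio of 0.494 and 0.467 in NT_UGI_MMR replicates 1 and 2, over lengths of 47.2 and 36.2 kb. Neither 5FdUR library listed a region there.

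The overlap of whole region sets shows the same separation. The pair of 5FdUR libraries shared 227 Mb, 44.6% of replicate 1 and 43.4% of replicate 2, a Jaccard index (shared over joint length) of 0.282, where independent placement would give 0.0963. The untreated pair had a Jaccard index of 0.391. Across groups the Jaccard index was 0.0103 and 0.0122 for 5FdUR replicate 1 against the untreated libraries and 0.0383 and 0.0401 for 5FdUR replicate 2. All cross-group values lay below independent placement, which would give between 0.0720 and 0.0741. Only 1.06 Mb of the genome was covered in all 4 libraries, and 1722 Mb in none. The mean Jaccard index within groups exceeded that between groups by 0.311, or by 0.380 without 5FdUR replicate 2.

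Base composition of the regions differed between the groups. The GC content of region bases was 45.2% and 42.4% in 5FdUR replicates 1 and 2, and 33.7% and 33.8% in NT_UGI_MMR replicates 1 and 2, compared with 40.9% in the whole genome. Untreated regions lay on DNA poorer in GC than the genome and 5FdUR regions on DNA richer in it, with no overlap between groups (difference of means 10.1 percentage points, or 11.5 without 5FdUR replicate 2, exact permutation test, two-sided p = 0.333, the smallest p that 2 against 2 libraries allow).

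The genome was then divided into 100 kb bins, and the covered share of each bin was compared by limma on log2(covered percent + 1). Of 26132 bins tested, 9112 (34.9%) were covered more after 5FdUR and 5125 (19.6%) less, at a Benjamini-Hochberg adjusted p of 0.05 in limma. The values of both 5FdUR libraries exceeded both untreated values in 12441 bins (47.6%) and lay under both in 8822 bins (33.8%). The covered total differs between groups by the authors' thresholds, and the median log2 difference over all tested bins was 0.80. Dividing each library by its own covered share brought this median to 0.21, and the calls to 7860 bins higher and 6761 lower, with each of the 5125 lower calls kept. Without the filter on mean covered percent, 8085 of 29432 bins were called higher and 4200 lower, with a median log2 difference of 0.38. The calls depended on the untreated pair: without NT_UGI_MMR replicate 1 the counts were 3284 and 1584, and without NT_UGI_MMR replicate 2 they were 3424 and 1559. Without 5FdUR replicate 1 they were 5792 higher and 4281 lower, and without 5FdUR replicate 2 they were 6705 and 6403. With a log2 minimum of 0.34 in every library, which leaves 12.7 Mb of 5FdUR replicate 2, 331 bins were called higher and 11731 lower.

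The direction of change followed the GC content of the bin. In bins under 36% GC the covered share was 2.85% and 10.2% in the 5FdUR libraries and 40.7% and 40.5% in the untreated libraries. Of the 4023 such bins tested, 1 was called higher and 2456 lower. Between 39% and 42% GC the order had turned, at 18.1% and 20.1% against 3.88% and 4.15%. In bins between 45% and 50% GC the values were 34.6% and 24.0% against 0.49% and 0.51%, and 2199 of 2853 tested bins were called higher and 8 lower. At 50% GC and above the untreated libraries fell to 0.11% each, and the 5FdUR libraries to 29.9% and 15.2%. The untreated shares fell from class to class, whereas the 5FdUR shares peaked between 45% and 50% GC in replicate 1 and between 42% and 45% GC in replicate 2. Replicate 2 had the flatter profile, with more coverage in the classes under 42% GC and less in those above.

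**Figure D1:**
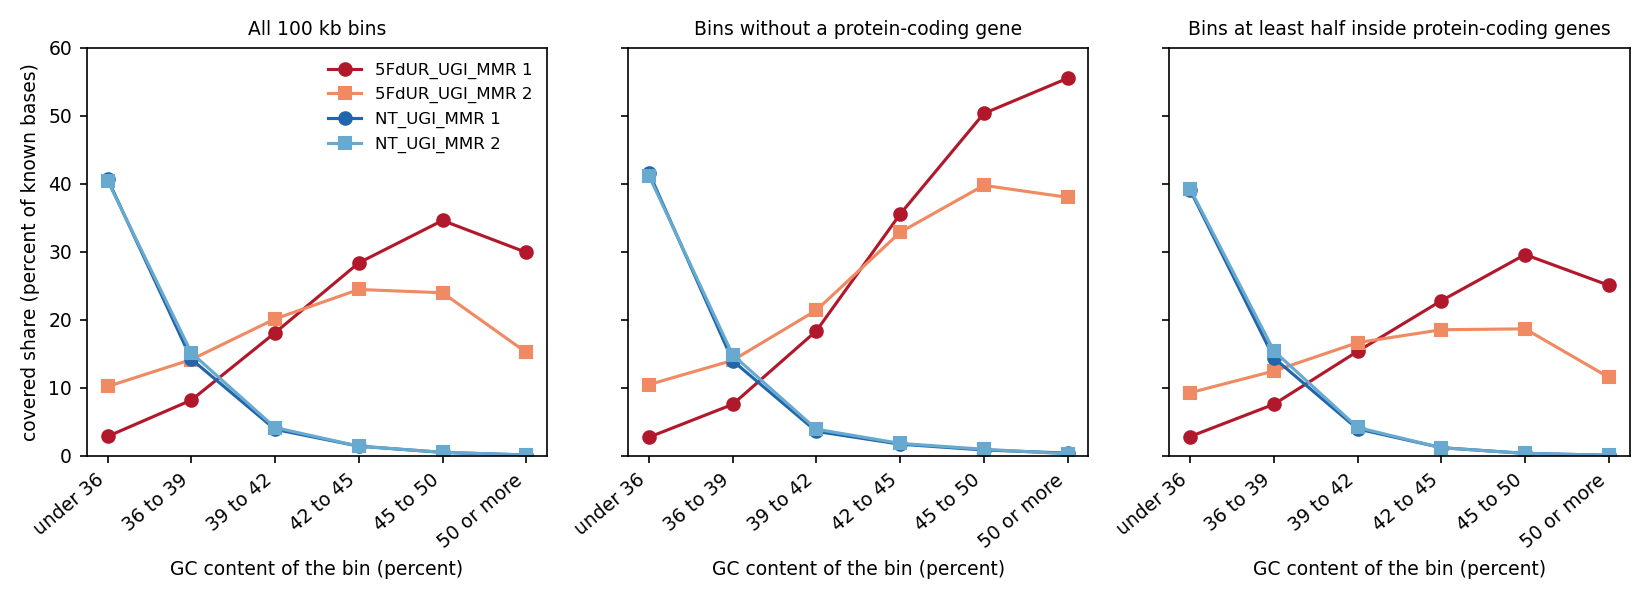
Covered share (percent of known bases, y axis) of 100 kb bins in 6 classes of GC content (x axis), with 1 marker per library. The untreated libraries fall from 40.7% and 40.5% in the class under 36% GC to 0.11% in the class of 50% and above, and the 5FdUR libraries rise from 2.85% and 10.2% to peaks of 34.6% and 24.5% and then fall to 29.9% and 15.2%.

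Within GC-rich bins the covered share also went with gene content. Among bins of at least 45% GC, those without any protein-coding gene were covered more than those with at least 50% of their length in such genes, by 23.4 and 23.7 percentage points in the 5FdUR libraries. In the untreated libraries the same difference was 0.53 and 0.60 points, where coverage was too low for a large difference in points. Between 45% and 50% GC the untreated libraries had 0.85% and 0.96% in bins without a protein-coding gene. In bins at least 50% inside such genes they had 0.35% each, so the untreated libraries also differed in relative terms. Between 45% and 50% GC the gene-free bins were covered at 50.3% and 39.8% after 5FdUR and the genic bins at 29.6% and 18.7%. In the MMR deficient cells treated with the same drug this difference was -1.72 and 15.02 points, and it was not tested between cell lines.

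The longest runs of adjacent called bins were found on chromosomes 13, 14 and 19 for gains and on chromosomes 5, 4 and 8 for losses. The longest gain ran from 27.2 to 32.3 Mb of chromosome 13 (chr13:27200001-32300000), where the covered share was 44.3% and 44.5% after 5FdUR and 3.18% and 3.42% without drug. This stretch holds MTUS2, FRY and FLT1, the last of which encodes a receptor for vascular endothelial growth factor. The run at chr14:93600001-98300000, with UNC79, VRK1 and CLMN, was covered at 52.97% and 42.98% against 3.55% and 3.43%. The run at chr19:50600001-55000000 holds 141 protein-coding genes, the longest being the zinc finger genes ZNF83, ZNF577 and ZNF432, and was covered at 37.2% and 38.0% against 0.48% and 0.58%.

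The longest losses lay in stretches with few genes. The longest of all extended over 12.8 Mb of chromosome 5 (chr5:17900001-30700000) with 5 protein-coding genes, among them the neuronal cadherins CDH18, CDH12 and CDH9. Here the untreated libraries were covered at 44.6% and 41.6% and the 5FdUR libraries at 0.20% and 1.86%. The run at chr4:58000001-67100000, with the neuronal adhesion receptor ADGRL3, the ephrin receptor EPHA5 and TECRL, went from 44.4% and 43.9% to 0.27% and 1.49%. The run at chr8:109800001-116100000, with CSMD3, the transcription factor gene TRPS1 and KCNV1, went from 51.9% in each untreated library to 0.51% and 1.18%. The 3 longest losses held 5, 3 and 3 protein-coding genes, and the 3 longest gains 29, 39 and 141. In all there were 1752 runs of gain, with a median length of 0.3 Mb, and 1370 runs of loss, with a median length of 0.2 Mb, so the typical run of loss was the shorter.

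Chromosomes differed in the size of the change. The covered share was higher in both 5FdUR libraries than in both untreated libraries on 20 of the 23 chromosomes other than Y. It was lower on chromosome 13 and overlapping on chromosomes 4 and 21. Over the whole genome the authors' thresholds gave 17.3% and 17.8% against 10.9% and 11.3%. A higher share is therefore not by itself a gain relative to the genome. Chromosome 22 had the largest ratio of means, 12.9, from 23.004% and 15.7% against 1.42% and 1.59%. Chromosome 19 followed with a ratio of 10.8, from 14.3% and 12.2% against 1.26% and 1.20%. The smallest ratios were 0.82 on chromosome 13 (15.4% and 17.6% against 20.2% and 20.1%) and 0.92 on chromosome 4 (15.4% and 21.4% against 19.9% and 20.3%). On chromosome 4 the direction rested on a single library, since the log2 ratio was 0.09 without 5FdUR replicate 1. Chromosome 3, the one added to the sub-line, had 16.4% and 17.6% against 14.1% and 14.5%, a ratio of 1.19. Divided by the genome share of the same library, its share was lower after 5FdUR, at 0.944 and 0.990 against 1.29 in each untreated library. The part of the added copy in these values was not tested. When each library was reduced to its 300 Mb of highest log2 ratio, 10 chromosomes were higher and 9 lower, with a log2 ratio of -0.43 for chromosome 3, and with a log2 minimum of 0.34 none was higher and 15 were lower.

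Towards chromosome ends the contrast was large. Within 2 Mb of an end the covered share was 26.8% and 18.03% after 5FdUR and 2.48% and 2.65% without drug. Between 10 and 20 Mb from an end it was 19.6% and 18.7% against 8.05% and 8.20%. The 5FdUR shares were highest between 2 and 5 Mb from an end, at 30.5% and 24.2%.

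Region length changed in opposite ways for long and for typical regions. The 5FdUR libraries held 176909 and 226382 regions and the untreated libraries 126273 and 136970. The N50, the length at which regions that long or longer hold 50% of region bases, was 7000 and 5400 bp after 5FdUR and 5100 bp in each untreated library. The median length was 1000 and 900 bp after 5FdUR and 1300 and 1200 bp without drug. The N50 was thus higher by 0.27 and the median lower by 0.40 on the log2 scale, with no overlap between groups for either (exact permutation test, two-sided p = 0.333, the smallest possible). The N50 difference depended on the 5FdUR library, at 0.46 without replicate 2 and 0.08 without replicate 1. The difference of the median length turned to 1.24 among the 300 Mb of highest log2 ratio.

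Long regions set the 5FdUR libraries apart. Regions of at least 50 kb numbered 383 and 90 after 5FdUR, and 1 and 2 without drug. They held 6.003% and 1.14% of region bases after 5FdUR. Their mean log2 ratio was 0.468 and 0.331, compared with 0.218 and 0.147 for regions under 1 kb in the same libraries. The longest region of 5FdUR replicate 1 was 408.3 kb long, at chr8:141958101-142366400 over the gene TSNARE1, and the next was 291.1 kb at chr17:79346001-79637100 over RBFOX3, a neuronal splicing factor gene. The longest of 5FdUR replicate 2 was 171.8 kb, over ATP2B2. The third longest region of both 5FdUR libraries lay over MTHFSD, FOXL1 and FOXF1, at 281.0 and 135.1 kb. The longest untreated regions reached 56.4 and 56.8 kb.

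The log2 ratio itself was lower after 5FdUR. Its mean over region bases was 0.325 and 0.224 in the 5FdUR libraries and 0.416 and 0.443 in the untreated libraries, a difference of means of -0.155, or -0.104 without 5FdUR replicate 2 (exact permutation test, two-sided p = 0.333, the smallest possible). The highest region value was 0.614 and 0.501 after 5FdUR and 1.89 and 2.20 without drug. These values depend on each library's threshold and scaling, and they do not compare uracil content between cells.

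Around genes the untreated cells showed a gap that the treated cells lacked. Relative coverage is the covered share of a feature over the covered share of the known genome in the same library, which takes out the total length but not the effect of the threshold on which regions are listed. In the 2 kb after the starts of 19950 protein-coding genes, relative coverage was 1.14 and 0.868 in the 5FdUR libraries and 0.144 and 0.145 in the untreated libraries. Between 10 and 15 kb downstream it was 1.07 and 0.844 against 0.422 and 0.419. Untreated coverage thus fell at the start itself, whereas the 5FdUR libraries showed no such drop. Over gene starts with 2 kb on each side the log2 difference of relative coverage was 2.76, or 2.94 without 5FdUR replicate 2 (exact permutation test, two-sided p = 0.333, the smallest possible).

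**Figure D2:**
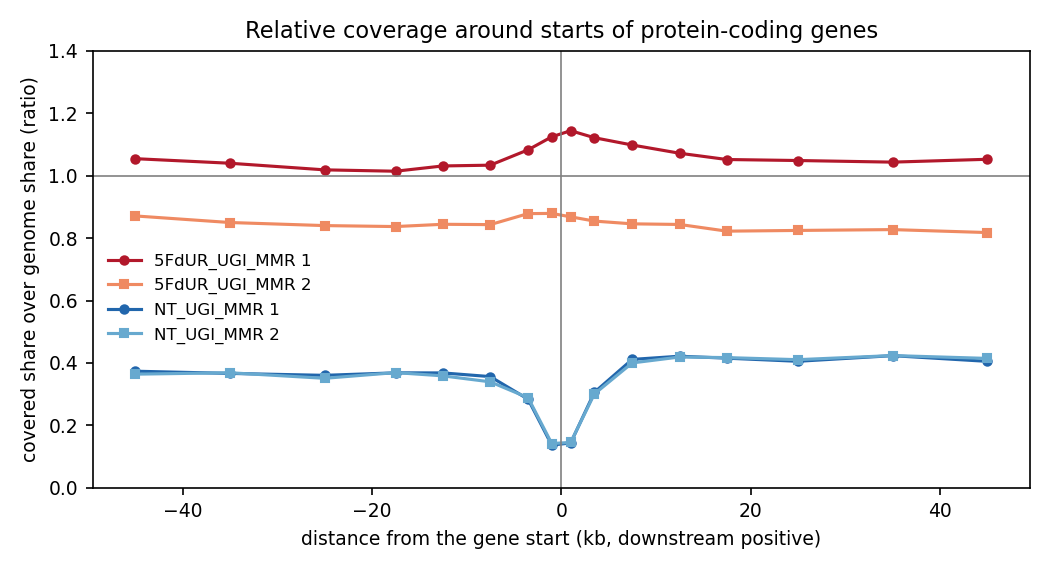
Relative coverage (covered share over genome share, ratio, y axis) by distance from the starts of 19950 protein-coding genes (kb, downstream positive, x axis), with 1 line per library. The untreated lines fall to 0.144 and 0.145 within 2 kb downstream of the start, and the 5FdUR lines stay at 1.14 and 0.868.

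CpG islands, the CG-rich stretches found at many promoters, showed the same contrast. Their relative coverage was 1.26 and 0.967 after 5FdUR and 0.164 and 0.140 without drug, a log2 difference of 2.87, or 3.06 without 5FdUR replicate 2. Coding sequence had 1.24 and 0.821 against 0.498 and 0.509, and exons 1.18 and 0.824 against 0.575 and 0.598. Introns differed by less, with 0.957 and 0.863 against 0.836 and 0.843. Sequence outside annotated genes had 0.993 and 1.08 after 5FdUR and 1.14 and 1.13 without drug. Groups did not overlap for any of these features, and each exact permutation test gave the smallest possible two-sided p of 0.333. For introns the log2 difference was 0.11, with 0.19 without 5FdUR replicate 2 and 0.04 without replicate 1, and for coding sequence it was 1.001, with 1.30 and 0.71. The part of GC content in these differences was not tested.

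For 20033 protein-coding genes the covered share of the whole gene body was compared in the same way. Of the 13283 genes covered at 1% or more on average over the 4 libraries, 4772 (35.9%) were covered more after 5FdUR and 1061 (7.99%) less in limma at a Benjamini-Hochberg adjusted p of 0.05, with a median log2 difference of 2.40. Without this filter, 4032 of 20033 genes were called higher and 733 lower, with a median log2 difference of 0.53. Another 5745 genes had no covered base in any of the 4 libraries. Both 5FdUR libraries exceeded both untreated libraries in 6945 genes (52.3%) and lay under both in 2276 (17.1%). Without either NT_UGI_MMR replicate 1 or replicate 2 limma called 0 genes, with 4024 or 4054 genes higher and 915 or 916 lower at an unadjusted p under 0.05. Without 5FdUR replicate 1 the counts were 4951 and 913, and without 5FdUR replicate 2 they were 6589 and 1231. Every gene called below therefore rests on having both untreated libraries.

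Loss was more frequent among long genes. Of tested genes under 20 kb, 4.74% were called lower and 37.3% higher, and of tested genes of 300 kb or more, 21.98% were called lower and 30.9% higher. The median GC content of these classes was 51.3% and 39.02%.

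The genes with the largest gains changed from bare to fully covered. MTHFSD, HTRA1, BPIFB4 and OGDHL were covered at 100% in both 5FdUR libraries and at 0% in both untreated libraries. Each had a log2 difference of 6.66 ± 0.15 (SE, n = 2 per group, limma adjusted p = 0.000821). The replicates of these 4 genes were equal, so this SE and p come from the spread that limma borrows from other genes. MTHFSD (chr16:86530178-86555235) encodes a methenyltetrahydrofolate synthetase domain protein, HTRA1 (chr10:122458551-122514907) a secreted serine protease, BPIFB4 (chr20:33079643-33111751) a member of the BPI fold family, and OGDHL (chr10:49734641-49762379) a 2-oxoglutarate dehydrogenase-like enzyme. SLA, which encodes the Src-like adaptor, had 100% in both 5FdUR libraries and 0% and 0.604% in the untreated libraries. SIRPA, an inhibitory receptor gene of myeloid cells, had 100% and 99.4% against 0% in each. UNC93A, the parvin gene PARVG, the phospholipase gene PLA2G2C and the cadherin-related gene CDHR1 had between 98.0% and 100% after 5FdUR and 0% without drug. The GC content of these 10 genes lay between 46.6% and 55.5%. They are the first of 3227 genes that met the same criteria, and the choice by size means that their values carry no further weight.

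The genes with the largest losses were GC-poor. FAM76B (chr11:95768953-95790409) was covered at 78.1% and 83.2% in the untreated libraries and at 0% in both 5FdUR libraries. RGS21, a gene of the regulator of G protein signalling family, had 77.7% and 75.1% against 0% in each, and CYLC2, a sperm head protein gene, 73.3% and 74.5% against 0%. All untreated values of these genes lay far above all treated values. The type XI collagen gene COL11A1 had 74.5% and 72.7% without drug and 0% and 2.15% after 5FdUR (log2 difference -5.39 ± 0.68, SE, n = 2 per group, limma adjusted p = 0.0122). The cadherin gene CDH19 had 82.3% and 66.5% against 0% and 3.20%, and the protocadherin gene PCDH17 70.4% and 69.8% against 0% and 4.67%. NOVA1, a neuronal splicing regulator gene, had 67.8% and 69.0% against 0% and 2.09%. ALX1, a homeobox gene of craniofacial mesenchyme, was covered at 5.94% in each 5FdUR library and at 63.9% and 89.0% without drug. C8orf88 and PRR27 completed the 10, which had a GC content between 30.4% and 34.6% and were the first of 865 such genes.

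Genes of the pathway that 5FdUR targets were called at about the rate of all genes. Of 24 listed genes of thymidylate and dUTP metabolism 11 passed the filter, 4 were called higher (36.4% of those tested, beside 35.9% of all genes) and 1 lower (9.09%, beside 7.99%), with a median log2 difference of 2.66, beside 2.40 over all tested genes. TYMS, which encodes thymidylate synthase (chr18:657653-673578), was covered at 30.8% and 37.3% after 5FdUR and at 0% in both untreated libraries (log2 difference 5.13 ± 0.26, SE, n = 2 per group, limma adjusted p = 0.00189). DCTD, the dCMP deaminase gene, had 53.1% and 41.2% against 0% in each, and SLC19A1, the reduced folate carrier gene, 45.2% and 14.8% against 0%. DPYD, the gene of the enzyme that degrades uracil and 5-fluorouracil, was covered less, at 3.73% and 8.87% after 5FdUR and 38.3% and 36.4% without drug (log2 difference -2.49 ± 0.46, SE, n = 2 per group, limma adjusted p = 0.0287). RRM2B, a ribonucleotide reductase subunit gene, had 3.48% and 8.71% against 53.1% and 18.9%, which did not pass in limma (adjusted p = 0.095).

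Of 16 genes of uracil base excision repair 8 passed the filter, and 2 (25% of those tested, beside 35.9% of all genes) were called higher and 0 lower. UNG itself was covered at 12.0% and 35.7% after 5FdUR and at 0% in both untreated libraries. APEX2, an AP endonuclease gene on chromosome X, had 82.1% and 11.5% against 0%. The 5FdUR replicates of both genes were far apart. Of members without a call, PARP1 had 58.4% and 1.04%, and LIG1 22.3% and 2.54%, each with 0% in both untreated libraries, and APTX 1.37% and 4.40% against 3.90% and 4.26%.

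Of 11 mismatch repair genes 7 passed the filter, and 2 (28.6% of those tested, beside 35.9% of all genes) were called higher and 0 lower. MSH6, which takes part in recognising single mismatches, was called higher, at 28.4% and 37.5% after 5FdUR against 0% in both untreated libraries. MSH3 and PMS1 had values in the opposite direction, at 2.93% and 11.7% against 15.3% and 14.5%, and at 0% and 8.05% against 17.6% and 9.51%, without a call. The median log2 difference of this list was 1.37 and became -2.36 among the 300 Mb of highest log2 ratio.

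The checkpoint genes differed from each other. Of 20 listed genes of the replication stress checkpoint 9 passed, 1 was called higher (11.1%, beside 35.9% of all genes) and 3 lower (33.3%, beside 7.99%), with a median log2 difference of -1.07. ATR, the kinase that senses stalled replication forks, was covered at 18.3% and 13.6% without drug and at 0% in both 5FdUR libraries. ATM, the kinase that responds to double-strand breaks, had 14.2% and 18.006% against 0.41% and 0.48%, and ETAA1, an activator of ATR, 39.95% and 36.6% against 0% and 1.89%. HUS1, a subunit of the 9-1-1 clamp, had 64.3% and 22.7% after 5FdUR against 0%. Of 20 p53 target genes 9 passed, 5 were called higher (XPC, ZMAT3, BTG2, AEN and TIGAR, 55.6% beside 35.9% of all genes) and 1 lower (SESN1), with a median of 3.44. The other 11 were at 0% in all 4 libraries, and the median covered share over all 20 members was 0% in each library. The 55.6% and the 3.44 therefore describe only members with coverage and not the list. XPC, a nucleotide excision repair gene, had 88.9% and 67.8% against 0%.

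Calls among colon epithelial, HOX and keratin genes were gains. Of 20 colon epithelial genes 14 passed the filter, 10 were called higher (71.4% of those tested, beside 35.9% of all genes) and 0 lower, with a median log2 difference of 4.72. TFF3, the intestinal trefoil factor gene, was covered at 100% in both 5FdUR libraries and 0% in both untreated libraries. AXIN2, a target of Wnt signalling, had 90.5% and 92.6% against 0%, and CDX2, the homeobox gene of intestinal identity, 100% and 46.4% against 0%. HNF4A had 57.1% and 44.5% against 0%. The other 6 members, VIL1, KRT8, KRT18, EPCAM, CDH1 and LGALS4, were at 0% in all 4 libraries. LGR5, the intestinal stem cell receptor gene, was covered in all 4 libraries, at 31.1% and 28.7% against 7.78% and 9.21%. Of 39 HOX genes 32 passed and 13 were called higher (40.6%, near the 35.9% of all genes) and 0 lower, with a median of 3.56. Of the 13, 8 belong to the HOXD cluster, for example HOXD3 at 85.5% and 77.8% against 0% and HOXD13 at 75.2% and 52.1% against 0%. HOXB13, from another cluster, had 100% and 0% in the 5FdUR libraries and was not called. Of 27 keratin and keratin-associated genes 22 passed, and 11 were called higher (50%) and 0 lower, among them KRT1 and KRT2 with 100% in both 5FdUR libraries and 0% in both untreated libraries. Adjacent members of such clusters often lie in the same region and are not independent. The median GC content was 47.6%, 54.0% and 50.9% for the colon, HOX and keratin genes, compared with 42.4% over all genes tested.

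Genes of cytosolic ribosomal proteins were mostly bare. Of 37 members 28 were at 0% in all 4 libraries, beside 5745 of 20033 protein-coding genes of any length, and 6 passed the filter. Short genes passed less often, with 4138 of 8382 genes under 20 kb against 810 of 826 genes of 300 kb or more. The part of gene length in the count of bare members was not tested. RPS9 alone was called higher (16.7% of those tested, beside 35.9% of all genes), at 47.3% and 17.6% against 0%, and none was called lower.

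Neuronal adhesion genes and genes at fragile sites lay on the side of loss. Of 31 neuronal adhesion genes 29 passed the filter, and 14 were called lower (48.3% of those tested, beside 7.99% of all genes). Another 2 were called higher (6.90%, beside 35.9% of all genes), and the median log2 difference was -2.51. CDH18 had 45.4% and 42.2% without drug and 0.44% and 1.10% after 5FdUR, and CDH12 39.6% and 37.7% against 0% and 1.45%. PCDH15, a protocadherin gene of sensory hair cells, had 47.7% and 48.5% against 0.33% and 2.17%. The exceptions SLITRK3 and LRRTM1 were covered more after 5FdUR, at 62.6% and 30.7% and at 14.3% and 26.2%, against 0% in each untreated library. Of 18 genes at common fragile sites, which break under replication stress, all passed the filter. Of these, 4 were called lower (22.2%, beside 7.99% of all genes) and 0 higher (beside 35.9%), with a median of -1.504. CNTNAP2 had 19.6% and 21.0% without drug against 1.82% and 5.25%, and DLG2 16.8% and 21.8% against 1.24% and 3.94%. IMMP2L and CSMD1 were the other two. FHIT, the gene of the fragile site FRA3B, had 5.92% and 6.22% without drug and 4.36% and 4.46% after 5FdUR, without a call. The median GC content of these lists was 35.7% and 37.7%, and the part of GC content in the values of any list was not tested. Over all 11 lists, 51 members were called higher and 23 lower. The lists hold 263 members, of which many did not pass the filter and could not be called. These counts over 263 are therefore not shares to set beside the 35.9% and 7.99% of all tested genes. They moved without 5FdUR replicate 2, and every call rests on having both untreated libraries. With a log2 minimum of 0.34 in every library, which removes most of 5FdUR replicate 2, the list medians turned to -4.99 for thymidylate metabolism, -2.22 for base excision repair, -3.09 for mismatch repair and -0.79 for p53 targets.

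The same drug was also given to the MMR deficient parental cells with UGI, and the difference of the 5FdUR effect between cell lines was tested as an interaction in limma. The effect was higher in MMR proficient cells in 443 of 26132 bins (1.7%) and lower in 41 (0.157%), at a Benjamini-Hochberg adjusted p of 0.05. In the 443 bins the covered share was 27.1% and 28.7% in the 5FdUR treated MMR proficient cells and 0.09% and 0.38% in the 5FdUR treated MMR deficient cells, with 5.04% and 5.67% and with 6.82% and 7.61% in the respective untreated cells. In the 41 bins the order was the reverse, at 2.24% and 1.97% against 68.4% and 44.5%. The bins called higher had a mean GC content of 40.7%, close to the genome. Only bins and genes that passed the filter on the 4 MMR proficient libraries entered this test, so those covered only in MMR deficient cells could not be called lower, and the counts of the 2 directions cannot be set against each other. APEX1, for example, an AP endonuclease gene covered at 100% in both 5FdUR treated MMR deficient libraries and at 0% in all 4 MMR proficient libraries, was not tested. Among genes, 128 of 13283 (0.964%) were higher and 34 (0.256%) lower. None of the 20 genes with the largest change had an adjusted interaction p under 0.05, and TYMS and DPYD had adjusted p values of 0.681 and 0.711 in limma. Without NT_UGI_MMR replicate 1 or 2 the counts fell to 0 bins and 0 genes, with 3223 or 3525 bins and 917 or 972 genes higher at an unadjusted p under 0.05. Leaving out a library of the MMR deficient cells moved them as well, to 4887 bins higher and 514 lower without 5FdUR_UGI replicate 2, and to 0 bins without 5FdUR_UGI replicate 1 or either NT_UGI library. Without 5FdUR_UGI_MMR replicate 1 they were 2495 and 1218, and without replicate 2 the bins higher were 688.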

How the data were processed

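U-DNA-Seq region files of 5FdUR treated and non-treated, UGI-expressing, MMR proficient HCT116 cells were used, with those of the MMR deficient line for the interaction. Per the labels and methods, the authors sequenced enriched and input DNA, aligned reads to GRCh38 (BWA 0.7.17-r1194, SAMtools 1.9-50, Picard), removed blacklisted regions, computed the log2 ratio of enriched over input coverage in bins with smoothing (deepTools 3.2.1), and deposited regions above a threshold set per library with their mean log2 value. Libraries came from more than 1 sequencing provider, and which library came from which was not given in the sources used here. Samples were grouped by title.

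Here the covered percent of known bases was computed for 100 kb bins with at least 50% known bases, genes (GENCODE 44), chromosomes and features. Features with a mean covered percent of at least 1 over the 4 libraries were tested on log2(covered percent + 1) with limma 3.58.1 (R 4.3.3, lmFit, eBayes with trend, two-sided, Benjamini-Hochberg over all features tested, threshold 0.05). The log2 difference understates changes of low values. Single values per library were compared by exact permutation tests (SciPy 1.17.1). The scripts were tested on simulated data. In each direction the text names the 10 called genes of at least 20 kb with the largest difference of means, no overlap between groups and 1 Mb spacing, the 3 longest runs of called bins, members of 11 gene lists, and the chromosomes with the largest and smallest ratios. CpG islands were computed from GRCh38 (at least 200 bp, 50% GC, observed over expected CpG of 0.6). The members, lists and tests were chosen with earlier results of these data known, and no list had a set test. Limma p-values rest on the spread between 2 libraries per group, which limma moderates towards that of features with a like mean. Where replicates are equal, for example all at 0% or 100%, only the borrowed spread is left. A total of 2264 regions on other contigs were left out. Alternatives concerned the filter, pseudocount, scaling, bin size, minimum region length, log2 minimum and each replicate left out, where a lone library was assumed to vary like the other group. Values of some listed genes are not reported here.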

Additional observations from a re-analysis of the deposited data

Results flagged for a closer look

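The 5FdUR effect differed between MMR proficient and deficient cells, by the limma interaction term at a Benjamini-Hochberg adjusted p of 0.05, in 443 bins (higher in proficient cells), 41 bins (lower), 128 genes (higher) and 34 genes (lower). Bins and genes covered only in MMR deficient cells did not enter the test. Among listed genes, 2 had such a difference. CDH6, a cadherin gene on chromosome 5, was covered at 22.4% and 15.6% in the 5FdUR treated MMR proficient libraries and at 0% in both 5FdUR treated MMR deficient libraries, with untreated values of 7.60% and 9.67% and of 9.08% and 11.5%, and a log2 difference of the 5FdUR effect of 4.53. KRTAP9-2, a keratin-associated gene on chromosome 17 with a length of 1.005 kb, was covered at 100% and 84.9% in the 5FdUR treated MMR proficient libraries and at 0% in the other 6 libraries, with a log2 difference of 6.54. The counts fell to 0 when either untreated library of either cell line was left out, and to 0 bins without 5FdUR_UGI replicate 1.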

How the results depend on the processing

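Of 20 named genes, all kept direction and call with relative coverage, regions of at least 5 kb and the 300 Mb of highest log2 ratio. The same held with no log and a spread from 14 libraries, while 15 did so with a log2 minimum of 0.34. These genes were chosen for large differences and do not stand for all calls. Of all 4772 genes called higher, 92.5% were kept with relative coverage, 54.3% with regions of at least 5 kb, 49.7% with the top 300 Mb and 36.5% without log. For the 1061 called lower these shares were 100%, 42.4%, 88.3% and 34.2%. Every call of a named gene rests on having both untreated libraries, and without either of them only the direction was kept. The log2 minimum of 0.34 leaves 12.7 Mb of 5FdUR replicate 2. Counts of bins higher were 5217 with the top 300 Mb, 331 with the log2 minimum, 15426 with 50 kb bins and 1413 with 1 Mb bins, and of bins lower 11731 with the log2 minimum, 8615 with 50 kb bins, 651 with 1 Mb bins and 8822 by non-overlap. Counts of genes higher and lower were 1773 and 388 without log, 2807 and 676 with regions of at least 5 kb, 2385 and 1645 with the top 300 Mb, 112 and 2273 with the log2 minimum, and 11268 and 2434 over all annotated genes, and genes lower were 2276 by non-overlap and 700 around gene starts. The log2 difference of N50 was 0.97 with the top 300 Mb, 1.74 with the log2 minimum and 0.62 in merged files. That of the median length turned to 0.10 with regions of at least 5 kb, 1.24 with the top 300 Mb and 1.75 with the log2 minimum. With the log2 minimum the difference in mean log2 ratio was -0.0593, in GC content 13.3 points and in Jaccard index 0.206, which was 0.445 over the smaller set. Stricter CpG islands gave 7.004. Chromosomes lower were 2 with regions of at least 5 kb and in merged files, chromosomes higher and lower were 10 and 9 with the top 300 Mb and 0 and 15 with the log2 minimum, and the log2 ratio of chromosome 3 was -0.43 and -1.97. List members higher were 27 with regions of at least 5 kb, 27 with the top 300 Mb and 1 with the log2 minimum, and lower 36 and 42 in the last 2 settings. List medians reversed to -2.36 (mismatch repair, top 300 Mb) and, with the log2 minimum, to -3.09 (mismatch repair), -4.99 (thymidylate), -2.22 (base excision repair) and -0.79 (p53 targets). The cause was not tested.

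Leaving out each library in turn gave 3284 to 6705 bins higher, 1559 to 6403 lower, 0 to 6589 genes higher, 0 to 1231 lower, 0 to 90 list members higher, 0 to 35 lower, 20 to 21 chromosomes higher and 1 to 2 lower, with -0.381 to 0.0921 for the log2 ratio of chromosome 4, the latter without 5FdUR replicate 1. The interaction gave 0 to 4887 bins higher, 0 to 1218 lower, 0 to 1332 genes higher and 0 to 2765 lower. Deviations of same-numbered libraries correlated at 0.0162 over bins and 0.0049 over genes. A replicate block gave 9475 bins higher, 6233 lower, 4264 genes higher and 769 lower. Whether same-numbered libraries shared a batch was not tested. Depth is unknown for all regions.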
